A study of Mus musculus with 30 samples.

Results

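Pf4, Gp1bb, Gp9, Gp5, Gp6, Plek and Treml1 are 7 genes whose products are made by megakaryocytes and carried by platelets. They were taken by symbol from the 14685 genes of the FPKM table, and all 7 were present. Each passed the filter on low values, which asked for more than 1 FPKM in any sample. The samples were 5 populations from the differentiation of the mouse ESC line E14 into blood, in 3 genotypes with 2 replicates each, 30 in all. The genotypes were WT, Sp1ΔDBD/ΔDBD, in which both copies of Sp1 lack the DNA-binding domain, and Sp3-/-, in which both copies of Sp3 are disrupted. Each genotype stands for 1 ESC line in the labels, so genotype and line cannot be told apart. ESC had been kept on feeder fibroblasts and then grown without them before differentiation. Flk1 cells were taken from embryoid bodies with antibody-coated beads. On day 2 of the blast culture that followed, KIT+ cells were sorted into HE1, positive for Tie2 without CD41, HE2, positive for both, and progenitor cells, which carried CD41 and had lost Tie2. The study's methods call the replicates biological.

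Megakaryocytes are the large bone marrow cells that shed platelets, and in the embryo they share precursors with the red cell lineage. The platelet surface carries the GPIb-IX-V complex, which binds von Willebrand factor, and GPVI, which binds collagen, while the granules inside store chemokines and receptors that are released or exposed on activation. CD41, the protein used to sort HE2 and progenitor cells, is itself the integrin alpha chain of the platelet fibrinogen receptor and also marks early blood cells of every lineage. Sp1 and Sp3 are transcription factors found in nearly all cells that bind GC boxes.

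Marker RNA followed the labels of the populations only in part. Pou5f1, a pluripotency factor, lay between 410 and 501 FPKM in ESC. In Flk1 cells it was at 27.4 and 19.6 FPKM in WT, 39.7 and 14.4 FPKM in Sp1ΔDBD/ΔDBD and 82.1 and 83.9 FPKM in Sp3-/- cells. Kdr, which encodes Flk1, lay between 165 and 257 FPKM in Flk1 cells against at most 0.322 FPKM in ESC. Kit, which encodes KIT, lay between 13.9 and 26.8 FPKM in HE1 cells and between 10.4 and 17.6 FPKM in ESC. Tek, which encodes Tie2, fell from 135 to 234 FPKM in HE1 to between 5.95 and 17.5 FPKM in progenitor cells. Itga2b, which encodes CD41, was already at 34.8 to 83.3 FPKM in the HE1 cells sorted as CD41-, and was at 59.1 to 136 FPKM in progenitor cells with no difference between genotypes that passed the test. Tek, against which progenitor cells were sorted, was higher in Sp3-/- (13.6 and 17.5 FPKM) than in WT progenitor cells (8.67 and 5.95 FPKM, limma adjusted p = 0.0288). Both Sp1ΔDBD/ΔDBD progenitor samples (15.7 and 9.54 FPKM) were also above both WT samples, though that difference did not pass the test. Sp3 lay between 3.38 and 7.79 FPKM in Sp3-/- samples and between 25.9 and 58.1 FPKM in WT samples. Sp1 lay between 14.8 and 40.5 FPKM in Sp1ΔDBD/ΔDBD samples and between 24.9 and 52.4 FPKM in WT samples, and as the deletion leaves the rest of the gene in place this level checks little.

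The 7 genes lie on 6 chromosomes. Their positions are given in GRCm38, the assembly also called mm10. Pf4 is at chr5:90772435-90773383, Gp9 at chr6:87778072-87779768, Gp6 at chr7:4363965-4397744 on the minus strand and Treml1 at chr17:48359916-48367176. Gp1bb (chr16:18620317-18622403) and Gp5 (chr16:30307685-30310779) share a chromosome and both lie on the minus strand. Plek spans chr11:16971206-17052381 on the minus strand. Gp1bb shares exon sequence with Sept5, which lies upstream on the same strand, and Plek overlaps exons of Cnrip1 on the other strand. The study's methods state default settings for alignment and for counting and name no annotation or strand option, so reads in the shared stretches could have been counted to either gene. The neighbours were looked up for this reason, and their values are given below for some of the populations. How far shared reads moved Gp1bb or Plek was not tested.

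Since both mutated factors bind GC boxes, the promoters of the 7 genes were searched for the GC box letters and for letters bound by megakaryocyte factors. The RefSeq windows (GRCm38.p6) hold 250 bases before and 50 bases after the start of each gene, and both strands were searched. The letters GGGCGG were found in 1 of the 7, that of Gp1bb, against 35.7% of all 32851 windows and 63.0% of the windows of genes in the FPKM table. CACCC was found in 5 of 7 against 57.5% of all windows and 63.0% of those of genes in the FPKM table. AGATAA, bound by GATA factors, was found in 3 of 7 against 11.2% and 6.58%. The ETS letters CAGGAAG (13.3% and 12.2%) and ACCGGAAG (2.30% and 4.43%) and the TATA letters TATAAA (13.6% and 7.24%) were found in none. These matches describe letters only, and a window without them says nothing about binding elsewhere. The RefSeq start of Plek used for its window lies inside the gene span given above, and that of Gp5 a few bases outside it. The 120 bases before the start are printed for 4 genes, in each gene's own direction, with matches in capitals. They show the single GC box of the group, the Gp5 promoter with its pair of reversed AGATAA matches, and the promoters of Gp6 and Plek, the genes that were lower in Sp3-/- than in WT progenitor cells.
Gp1bb, chr16:18622404-18622523, minus strand: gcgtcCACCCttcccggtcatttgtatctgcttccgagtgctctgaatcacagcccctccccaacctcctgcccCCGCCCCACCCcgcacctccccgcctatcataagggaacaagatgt
Gp5, chr16:30310782-30310901, minus strand: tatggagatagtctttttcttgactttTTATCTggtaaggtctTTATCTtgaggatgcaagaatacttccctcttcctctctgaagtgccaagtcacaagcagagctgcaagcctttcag
Gp6, chr7:4397745-4397864, minus strand: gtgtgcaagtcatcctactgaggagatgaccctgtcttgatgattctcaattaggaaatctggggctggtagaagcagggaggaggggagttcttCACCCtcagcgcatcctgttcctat
Plek, chr11:17008719-17008838, minus strand: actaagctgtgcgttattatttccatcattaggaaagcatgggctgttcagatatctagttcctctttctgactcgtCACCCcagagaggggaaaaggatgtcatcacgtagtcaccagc
In the Gp1bb promoter the reversed GC box begins at position -46 from the start and a CACCC match at -40, so the matches touch without overlapping. The AGATAA match of Gp6 begins at -144, outside the stretch shown, and that of Pf4 lies after the start of the gene.

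In WT cells the 7 genes were measured mainly in HE2 and progenitor cells. None exceeded 0.5 FPKM in ESC or Flk1 cells of WT or Sp1ΔDBD/ΔDBD genotype, and in Sp3-/- cells 1 of the 14 values in Flk1 cells did. In HE2 cells 3 of 14 WT values exceeded 1 FPKM, and in progenitor cells 12 of 14 did. The progenitor count was 14 of 14 in Sp1ΔDBD/ΔDBD and 10 of 14 in Sp3-/- cells. Values this low rest on an unknown number of reads, since FPKM values hide the depth. In quantile-normalised values a gene without reads takes the lowest value of its sample, here between 0 and 0.0234 FPKM and shared by 398 to 1660 genes, and such values are given below as lowest values. In progenitor cells these genes numbered 858 and 910 in WT, 1216 and 1294 in Sp1ΔDBD/ΔDBD and 1660 and 1199 in Sp3-/- samples. In HE2 cells they numbered 784 and 891, 934 and 1024, and 1239 and 1499 in the same order. Of 300 values of 10 genes used by every cell, 0 were at the lowest value of their sample. Bulk values of this kind cannot tell fewer megakaryocytic cells from less RNA in each of them.

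**Figure D1:**
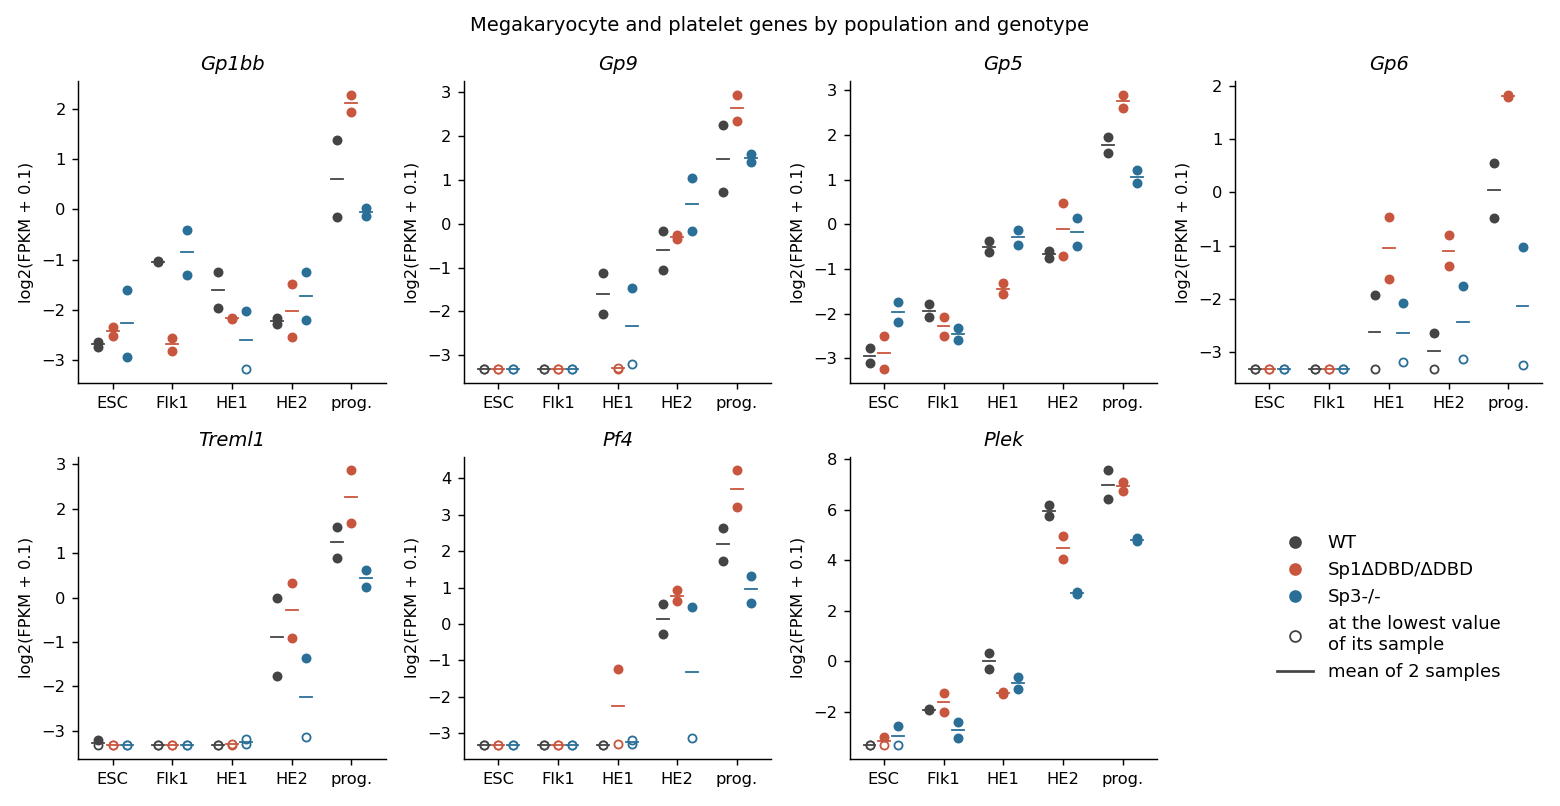
Level of each gene on the y axis, as log2(FPKM + 0.1), in ESC, Flk1, HE1, HE2 and progenitor (prog.) cells on the x axis, with 1 point per sample (n = 2 per group), a bar at the mean of the 2 log2 values, and open points for values at the lowest value of the sample. The highest values of all 7 genes were in progenitor cells, where the Sp1ΔDBD/ΔDBD samples lay above the Sp3-/- samples in all 7, and Plek stood above the other 6 in HE2 cells.

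Of the subunits of the von Willebrand factor receptor, Gp1bb encodes the beta chain that is disulphide-linked to GPIb alpha. It was at 0.797 and 2.50 FPKM in WT progenitor cells, at 3.74 and 4.77 FPKM in Sp1ΔDBD/ΔDBD and at 0.812 and 0.918 FPKM in Sp3-/- progenitor cells. Both Sp1ΔDBD/ΔDBD samples were above every other sample, while the WT and Sp3-/- samples overlapped. In the other populations Gp1bb stayed between 0.0096, the lowest value of its sample, and 0.655 FPKM, with Flk1 cells of WT (0.392 and 0.380 FPKM) and Sp3-/- genotype (0.655 and 0.305 FPKM) above Sp1ΔDBD/ΔDBD Flk1 cells (0.0687 and 0.0421 FPKM). Sept5, the neighbour that shares its exons, was at 0.0234 to 0.581 FPKM in progenitor cells, with no difference between genotypes there that passed the test. In Flk1 cells Sept5 was at 1.20 and 0.719 FPKM in WT, 1.86 and 1.35 FPKM in Sp1ΔDBD/ΔDBD and 0.581 and 0.532 FPKM in Sp3-/- cells.

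Gp9 encodes GPIX, which is needed for the complex to reach the surface. It was listed at 0 in all ESC and Flk1 samples. In progenitor cells it was at 1.56 and 4.62 FPKM in WT, 4.95 and 7.57 FPKM in Sp1ΔDBD/ΔDBD and 2.55 and 2.92 FPKM in Sp3-/- cells. The Sp3-/- samples lay between the WT samples, and the Sp1ΔDBD/ΔDBD samples above both. In HE1 cells Gp9 was at 0.358 and 0.139 FPKM in WT and at the lowest value of the sample in both Sp1ΔDBD/ΔDBD replicates.

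Gp5 encodes GPV, the subunit cleaved by thrombin. It was measured above the lowest value in all 30 samples, as was no other gene of the 7. Its progenitor values were 2.92 and 3.80 FPKM in WT, 5.99 and 7.39 FPKM in Sp1ΔDBD/ΔDBD and 2.22 and 1.80 FPKM in Sp3-/- cells, so that the genotypes formed 3 separate groups. In HE2 cells it was at 0.496 and 0.563 FPKM in WT, 0.516 and 1.3 FPKM in Sp1ΔDBD/ΔDBD and 0.614 and 1.01 FPKM in Sp3-/- cells, with the Sp1ΔDBD/ΔDBD samples overlapping both other groups.

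The fourth subunit of the complex, GPIb alpha, is encoded by Gp1ba, which is not one of the 7 and was looked at after their values were known. Its level per length was less tied to the last population. It was at 4.34 and 4.49 FPKM in WT HE2 cells and at 6.30 and 6.76 FPKM in WT progenitor cells. In Sp1ΔDBD/ΔDBD progenitor cells it was at 6.76 and 8.92 FPKM and in Sp3-/- progenitor cells at 7.18 and 7.37 FPKM. No difference between genotypes in progenitor cells passed the test for Gp1ba (log2 differences from -0.09 to 0.25).

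Gp6 encodes the collagen receptor GPVI, an immunoglobulin superfamily protein that signals through the Fc receptor gamma chain. It was listed at 0 in all ESC and Flk1 samples. In progenitor cells it was at 0.616 and 1.37 FPKM in WT, 3.45 and 3.35 FPKM in Sp1ΔDBD/ΔDBD, and 0.394 FPKM and the lowest value in Sp3-/- cells. The groups did not overlap. The Sp1ΔDBD/ΔDBD samples were also the highest in HE1 (0.225 and 0.626 FPKM) and HE2 cells (0.285 and 0.471 FPKM), where no other sample exceeded 0.198 FPKM.

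Treml1 encodes TLT-1, a receptor kept in alpha granules until activation, and Pf4 encodes platelet factor 4, an alpha granule chemokine that binds heparin. Treml1 was at 2.93 and 1.74 FPKM in WT progenitor cells, 7.16 and 3.09 FPKM in Sp1ΔDBD/ΔDBD and 1.43 and 1.09 FPKM in Sp3-/- progenitor cells. Pf4 was at 6.12 and 3.20 FPKM in WT, 18.4 and 9.06 FPKM in Sp1ΔDBD/ΔDBD and 2.40 and 1.39 FPKM in Sp3-/- progenitor cells. For both genes the genotypes stood in the order Sp1ΔDBD/ΔDBD, WT and Sp3-/- without overlap. Pf4 was listed at 0 in all ESC and Flk1 samples, and in HE1 cells it rose above the lowest value in 1 sample, a Sp1ΔDBD/ΔDBD replicate at 0.328 FPKM.

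Plek encodes pleckstrin, a substrate of protein kinase C that is abundant in platelets but also present in white blood cells. Per length it was the highest of the 7 in every HE2 and progenitor sample. It was at 53.6 and 72.4 FPKM in WT HE2 cells, at 16.5 and 30.8 FPKM in Sp1ΔDBD/ΔDBD and at 6.24 and 6.66 FPKM in Sp3-/- HE2 cells. In progenitor cells the values were 85.4 and 187 FPKM in WT, 106 and 138 FPKM in Sp1ΔDBD/ΔDBD and 29.3 and 26.8 FPKM in Sp3-/- cells. The 3 genotypes were thus separate in HE2 cells, while in progenitor cells the Sp1ΔDBD/ΔDBD samples lay between the WT samples and the Sp3-/- samples lay below. Cnrip1, which shares exons with Plek on the other strand, was at 4.66 to 12.7 FPKM in progenitor cells, and its differences from WT there were -0.88 in Sp1ΔDBD/ΔDBD and -0.96 in Sp3-/- cells (log2), with adjusted p of 0.122 and 0.0914.

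Levels of the 7 genes followed one another only in part within a population. The replicate of a genotype with the higher Pf4 also had the higher Treml1 in all 3 genotypes of progenitor cells, and the ratio of Pf4 to Treml1 lay between 1.28 and 2.93 over the 6 samples. The ratio of Pf4 to Gp9 ranged from 0.476 to 3.94. In WT and Sp1ΔDBD/ΔDBD cells the replicate with more Pf4 had less Gp1bb, Gp9, Gp5 and Plek. The summed level of 14 erythroid markers was 14721 and 5212 FPKM in the 2 WT progenitor samples, of which the first had the higher Pf4, and that of 13 myeloid markers was 112 and 259 FPKM. The erythroid sum was also larger in the Sp1ΔDBD/ΔDBD replicate with more Pf4 (10764 and 8088 FPKM). In Sp3-/- cells it was larger in the replicate with less Pf4 (1753 and 3989 FPKM). The part of these lineages in the values of the 7 genes was not tested.

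The step from HE2 to progenitor cells asks when the genes rise as cells lose Tie2. In the limma fit across all genes, 5 of the 7 rose at this step in WT cells, against 5.46% of all genes tested. These were Gp1bb (14.4 times by mean FPKM), Gp5 (6.35 times), Gp9 (5.23 times), Treml1 (4.29 times) and Gp6, which rose from 0 and 0.0599 FPKM. Gp1bb and Gp6 exceeded 1 FPKM in no population but progenitor cells, and so passed the filter only through the population where they were high. Their rises at this step, in any genotype, are therefore not independent of the filter. Pf4 (log2 difference 2.05 ± 0.76, SE) and Plek (1.02 ± 0.39) were higher in both progenitor samples than in both HE2 samples, with adjusted p of 0.0879 and 0.0923. With a pseudocount of 1 in place of 0.1, both passed the test (0.00336 and 0.0170). The WT calls of Gp9 (adjusted p 0.133 and 0.171) and Treml1 (0.211 and 0.132) were each lost without 1 of a pair of WT samples, HE2 replicate 1 or progenitor replicate 2 for Gp9, and HE2 replicate 2 or progenitor replicate 1 for Treml1.

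In Sp1ΔDBD/ΔDBD cells all 7 rose at this step, against 6.73% of all genes. The log2 differences ran from 2.42 ± 0.39 for Plek to 4.13 ± 0.53 for Gp1bb, which rose 26.0 times by mean FPKM. Without progenitor replicate 1 the calls of Pf4 (adjusted p = 0.120) and Treml1 (0.0642) were lost, as they were without HE2 replicate 1 (Pf4, 0.0766) or replicate 2 (Treml1, 0.0529). In Sp3-/- cells 3 of 7 rose, against 2.96% of all genes: Treml1 (log2 difference 2.68 ± 0.55), Plek (2.1 ± 0.39) and Gp5 (1.24 ± 0.37). The Gp5 call was lost when any 1 of its 4 samples was left out (adjusted p from 0.0560 to 0.273), and that of Treml1 without HE2 replicate 2 (0.114). Gp6 had a difference of 0.31 ± 0.63 there, and its samples overlapped. With only the HE2 and progenitor samples of 1 genotype in the limma fit, every call was lost in WT and Sp1ΔDBD/ΔDBD cells. Adjusted p of these calls then ran from 0.0826 to 0.299 in WT and from 0.0633 to 0.191 in Sp1ΔDBD/ΔDBD cells. In Sp3-/- cells Plek kept its call in that fit, while Treml1 (0.0726) and Gp5 (0.0924) lost theirs. The difference of this step between either mutant and WT was tested as an interaction, and 0 of the 7 passed for Sp1ΔDBD/ΔDBD or for Sp3-/- (limma). Unadjusted p under 0.05 was reached by Plek in Sp1ΔDBD/ΔDBD, with a step larger by 1.40 ± 0.55, and by Gp5 and Gp6 in Sp3-/- cells, with differences of the steps of -1.21 ± 0.52 and -2.71 ± 0.89. The interaction passed for at most 0.0207% of all genes in any direction.

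**Figure D2:**
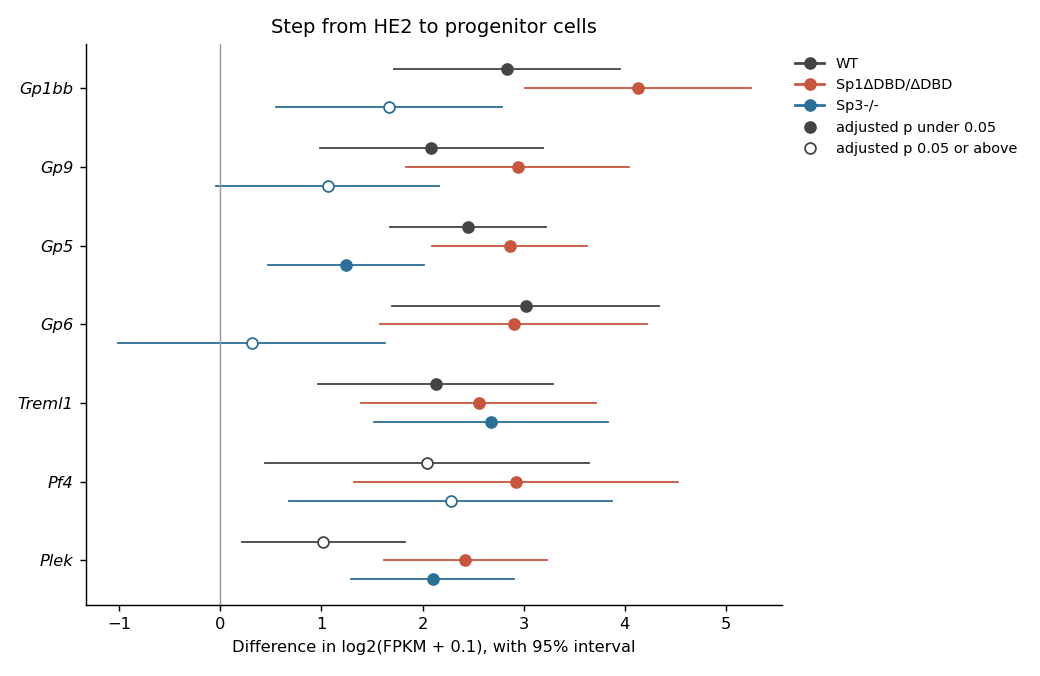
Change of each gene from HE2 to progenitor cells, as the difference in log2(FPKM + 0.1) on the x axis, in WT, Sp1ΔDBD/ΔDBD and Sp3-/- cells (limma, 2 samples per group), with lines for 95% intervals and filled points for adjusted p under 0.05. Every difference lay above 0, and the number that passed was 5 in WT, 7 in Sp1ΔDBD/ΔDBD and 3 in Sp3-/- cells.

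The earlier step, from HE1 to HE2 cells, was led by Plek. It rose from 0.706 and 1.16 FPKM in WT HE1 cells to 53.6 and 72.4 FPKM in WT HE2 cells, 67.6 times by mean FPKM, and it rose 74.3 times in Sp1ΔDBD/ΔDBD and 14 times in Sp3-/- cells. The smaller step of Plek in Sp3-/- than in WT cells (log2 difference of the steps -2.39 ± 0.55) had an adjusted p of 0.257, and 0.00972 with a pseudocount of 1. Pf4, Treml1 and Plek rose at this step in WT cells, 3 of 7 against 11.7% of all genes. In Sp1ΔDBD/ΔDBD cells Gp5, Gp9, Pf4, Plek and Treml1 rose, against 9.74% of all genes, and in Sp3-/- cells Gp9 and Plek, against 6.78%. The calls of Treml1 in WT cells (adjusted p = 0.0940 without HE2 replicate 1) and of Pf4 and Gp5 in Sp1ΔDBD/ΔDBD cells (0.0702 to 0.265 without 1 of their samples) rested on single replicates. The glycoprotein genes Gp1bb and Gp6 did not pass the test at this step in any genotype. The difference of the step from WT passed for 0 of the 7 in either mutant (limma), and for at most 0.00688% of all genes. Unadjusted p under 0.05 was reached by Gp5 and Gp9 in Sp1ΔDBD/ΔDBD and by Gp9 and Plek in Sp3-/- cells.

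At the steps before HE1 the 7 genes stayed low. From ESC to Flk1 cells Gp1bb, Gp5 and Plek rose in WT cells, 3 of 7 against 27.4% of all genes, with no value above 0.392 FPKM in Flk1 cells. Plek rose in Sp1ΔDBD/ΔDBD cells, against 26.3% of all genes, and Gp1bb in Sp3-/- cells, against 26.0%. From Flk1 to HE1 cells Gp5 (log2 difference 1.43 ± 0.37), Gp9 and Plek (1.93 ± 0.39) rose in WT cells, against 23.5% of all genes. Gp6 rose in Sp1ΔDBD/ΔDBD cells, against 20.9%. In Sp3-/- cells Gp5 (2.16 ± 0.37) and Plek (1.87 ± 0.39) rose, against 20.7%, and Gp1bb fell by 1.75 ± 0.53, against 23.3% called lower. Few of these calls were stable. With a pseudocount of 1, those of Gp1bb, Gp5 and Plek from ESC to Flk1 cells were lost in WT (adjusted p 0.121, 0.398 and 0.543), as were those of Plek in Sp1ΔDBD/ΔDBD (0.436) and Gp1bb in Sp3-/- cells (0.133). From Flk1 to HE1 cells the same setting ended the calls of Gp9 in WT (0.345) and of Plek (0.185) and Gp1bb (0.0851) in Sp3-/- cells. In WT, the ESC to Flk1 call of Gp1bb was lost without ESC replicate 2 (0.0638) or Flk1 replicate 1 (0.0585) or 2 (0.0552), and that of Gp5 without ESC replicate 1 (0.138) or Flk1 replicate 1 (0.136) or 2 (0.0520). That of Plek in Sp1ΔDBD/ΔDBD was lost without Flk1 replicate 2 (0.0556), and that of Gp1bb in Sp3-/- cells without ESC replicate 1 (0.360) or Flk1 replicate 1 (0.256). From Flk1 to HE1 cells, calls were lost for Gp9 in WT without HE1 replicate 1 (0.119), for Gp6 in Sp1ΔDBD/ΔDBD without HE1 replicate 2 (0.0847) and for Gp1bb in Sp3-/- cells without Flk1 replicate 1 (0.132) or HE1 replicate 2 (0.166).

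Progenitor cells of each mutant were then compared with those of WT, which serve both comparisons. In Sp1ΔDBD/ΔDBD progenitor cells, 6 of the 7 genes were higher in both samples than in both WT samples, against 26.7% of all genes, yet 0 of 7 passed the limma test, against 3.75% of all genes higher and 5.04% lower. Unadjusted p under 0.05 was reached by Gp1bb, Gp5, Gp6 and Gp9. The differences were 1.77 ± 0.63 for Gp6 (3.43 times by mean FPKM), 1.52 ± 0.76 for Pf4 (2.94 times), 1.50 ± 0.53 for Gp1bb (2.58 times), 1.15 ± 0.53 for Gp9 (2.03 times), 1.03 ± 0.55 for Treml1 (2.19 times) and 0.98 ± 0.37 for Gp5 (1.99 times), with adjusted p between 0.0894 and 0.291. Gp1bb passed without WT replicate 2 (adjusted p = 0.0275) and with correction for GC content and length (0.0390). Plek was the exception, with a difference of -0.06 ± 0.39 and a 95% interval from -0.87 to 0.75. With a pseudocount of 1, which gives low values less weight, all 6 passed, with adjusted p from 0.000201 for Gp6 to 0.0488 for Treml1.

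In Sp3-/- progenitor cells, 5 of 7 genes were lower in both samples than in both WT samples, against 23.4% of all genes, and 2 of 7 passed the test as lower, against 4.77%, and 0 as higher, against 3.88%. Plek was lower by 2.17 ± 0.39 (adjusted p = 0.00223), a mean of 28.0 FPKM against 136 FPKM. Gp6 was lower by 2.16 ± 0.63 (adjusted p = 0.0382). Neither call was kept with only the WT and Sp3-/- progenitor samples in the limma fit (adjusted p = 0.0861 for Plek). The Gp6 call was lost without WT replicate 2 (adjusted p = 0.238) and without Sp3-/- replicate 2 (0.436), the sample in which it was at the lowest value. Pf4 differed by -1.23 ± 0.76, Treml1 by -0.81 ± 0.55, Gp5 by -0.71 ± 0.37 and Gp1bb by -0.66 ± 0.53, none of which passed. With a pseudocount of 1, Gp5 passed (-0.53, adjusted p = 0.0455). Gp9 differed by 0.02 ± 0.53, with a 95% interval from -1.08 to 1.12.

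The mutants were also compared with each other directly, without WT. In progenitor cells all 7 genes were lower in both Sp3-/- samples than in both Sp1ΔDBD/ΔDBD samples, against 24.8% of all genes, and 6 of 7 passed the test as lower, against 6.09%, and 0 as higher, against 5.51%. Gp6 differed most, by -3.94 ± 0.63 (adjusted p = 0.000507), a mean of 0.200 FPKM against 3.40 FPKM. Pf4 differed by -2.75 ± 0.76 (1.90 against 13.7 FPKM), Gp1bb by -2.17 ± 0.53, Plek by -2.11 ± 0.39, Treml1 by -1.84 ± 0.55 and Gp5 by -1.68 ± 0.37, with adjusted p between 0.00153 and 0.0378. Gp9 differed by -1.14 ± 0.53 (adjusted p = 0.176, and 0.0259 with a pseudocount of 1). For Pf4, Gp5, Gp6 and Treml1, 4 of 7 against 3.22% of all genes, both Sp1ΔDBD/ΔDBD samples were above and both Sp3-/- samples below both WT samples. Gp6 and Plek kept adjusted p under 0.05 whichever replicate was left out. Of the others, Pf4 and Treml1 lost it without Sp1ΔDBD/ΔDBD replicate 1 (adjusted p 0.157 and 0.272), Gp1bb without Sp1ΔDBD/ΔDBD replicate 2 (0.0622), and Pf4, Gp1bb, Treml1 or Gp5 without 1 of the Sp3-/- replicates (0.0578 to 0.194). With only these 4 samples in the fit, 1 of 7 passed, Plek.

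**Figure D3:**
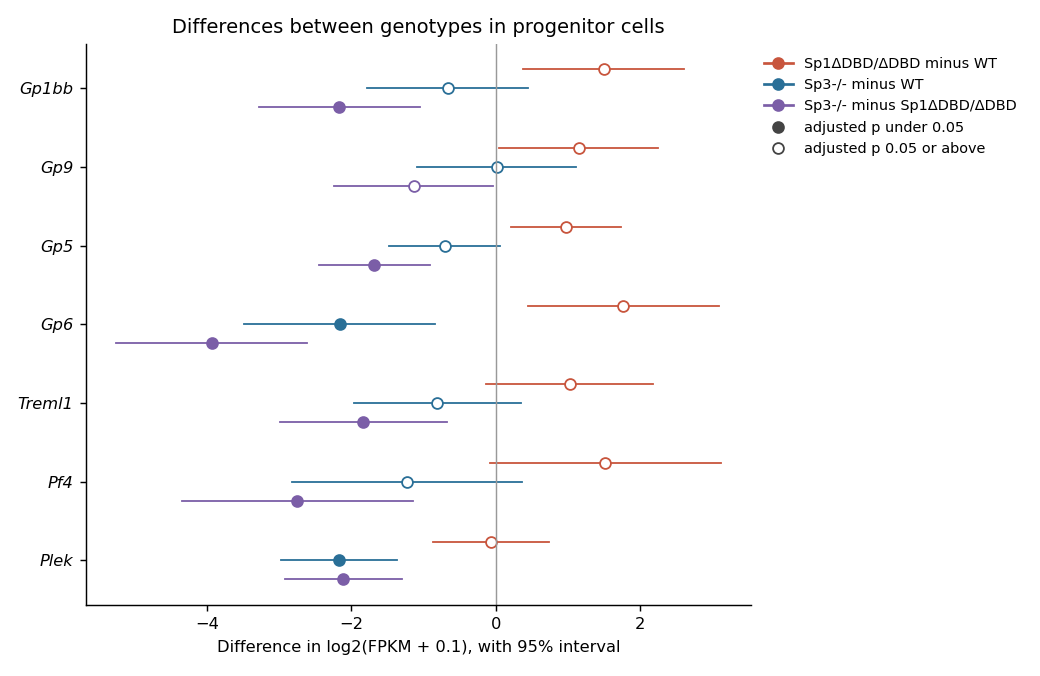
Differences between genotypes in progenitor cells for each gene, in log2(FPKM + 0.1) on the x axis with 95% intervals (limma, 2 samples per genotype), where filled points have an adjusted p under 0.05. Sp1ΔDBD/ΔDBD minus WT lay above 0 for all but Plek, and Sp3-/- minus Sp1ΔDBD/ΔDBD lay below 0 for all 7, with 6 filled points.

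In HE2 cells the differences between genotypes were mainly those of Plek. It was lower than in WT by 1.46 ± 0.39 in Sp1ΔDBD/ΔDBD (adjusted p = 0.0204) and by 3.25 ± 0.39 in Sp3-/- cells (adjusted p = 6.31e-05), the only one of the 7 to pass in either comparison, against 4.97% and 6.84% of all genes called lower and 4.70% and 6.97% called higher. It was also lower in Sp3-/- than in Sp1ΔDBD/ΔDBD HE2 cells, by 1.79 ± 0.39 (adjusted p = 0.00401), and there Treml1 was lower as well (-1.96 ± 0.55, adjusted p = 0.0213), against 8.45% of all genes called lower and 7.41% called higher. The Treml1 call rested on values of 0.288 FPKM and the lowest value against 1.16 and 0.434 FPKM. Without 1 replicate, either call could be lost: that of Plek without Sp1ΔDBD/ΔDBD replicate 2 (adjusted p = 0.0843), that of Treml1 without Sp1ΔDBD/ΔDBD replicate 1 (0.170) or Sp3-/- replicate 2 (0.330).

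Plek and the overlapping Cnrip1 lie on chromosome 11, where genes were lower in both mutants than genes elsewhere. The median difference from WT over 1205 genes of this chromosome was -0.31 in Sp1ΔDBD/ΔDBD and -0.26 in Sp3-/- HE2 cells, against 0.04 and 0.03 over all genes, and -0.34 and -0.27 in progenitor cells against 0.05 and 0.04. With the chromosome's median subtracted, Plek differed from WT by -1.16 in Sp1ΔDBD/ΔDBD HE2 cells and the call was lost (adjusted p = 0.0735), as it was in Sp1ΔDBD/ΔDBD HE1 cells (-0.98, adjusted p = 0.130), while it was kept in Sp3-/- HE2 and progenitor cells. The Sp1ΔDBD/ΔDBD HE2 call was also lost without either WT replicate (adjusted p 0.0517 and 0.125) or without Sp1ΔDBD/ΔDBD replicate 1 (0.157). For the chromosomes of the other 6 genes the median differences from WT in progenitor cells lay between 0.00212 and 0.153.

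In HE1 cells the 7 genes were near the limit of the measurement. Gp9 (adjusted p = 0.0466) and Plek (lower by 1.27 ± 0.39, adjusted p = 0.0431) were lower in Sp1ΔDBD/ΔDBD than in WT HE1 cells, 2 of 7 against 4.35% of all genes called lower and 5.69% called higher. The Plek values were 0.325 and 0.312 FPKM against 0.706 and 1.16 FPKM, and those of Gp9 were the lowest values against 0.358 and 0.139 FPKM. Both calls were lost with a pseudocount of 1, without WT replicate 1, or without either Sp1ΔDBD/ΔDBD replicate, with adjusted p from 0.0623 to 0.538, and that of Plek also without WT replicate 2 (0.246). Between the mutants, Gp5 was higher in Sp3-/- HE1 cells (0.815 and 0.629 FPKM) than in Sp1ΔDBD/ΔDBD HE1 cells (0.236 and 0.304 FPKM), against 6.83% of all genes called higher and 6.74% lower, and Gp1bb was higher in Sp3-/- than in Sp1ΔDBD/ΔDBD Flk1 cells, against 3.61% higher and 3.78% lower. Each of these calls was lost when any 1 of its 4 samples was left out. In Sp3-/- against WT HE1 cells 0 of the 7 passed (limma), against 6.02% of all genes higher and 4.87% lower. In ESC 0 of 7 passed in Sp1ΔDBD/ΔDBD (2.80% of all genes higher and 3.26% lower) or Sp3-/- against WT (5.40% and 5.91%) or between the mutants (4.30% and 5.37%). In Flk1 cells 0 of 7 passed against WT in Sp1ΔDBD/ΔDBD (2.92% and 2.62%) or Sp3-/- cells (6.69% and 5.94%). Among these tests against WT in ESC and Flk1 cells, unadjusted p under 0.05 was reached by Gp5 in Sp3-/- ESC and Gp1bb in Sp1ΔDBD/ΔDBD Flk1 cells.

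Other genes of platelets, taken from lists of known components, are described by their counts and medians for comparison, with no test of a list. In Sp1ΔDBD/ΔDBD progenitor cells the median difference from WT was 1.15 over the 7 genes. It was -0.01 over 19 receptor genes, -0.17 over 19 granule and secretion genes, -0.37 over 16 cytoskeleton genes, 0.13 over 20 signalling genes and 0.08 over 18 transcription factors, against 0.05 over all genes. Counts called are to be read against 3.75% of all genes that rose and 5.04% that fell. Of the receptors, 1 rose, G6b, an inhibitory receptor of megakaryocytes (2.05 and 2.01 FPKM in WT, 4.86 and 8.47 FPKM in Sp1ΔDBD/ΔDBD, adjusted p = 0.0107), and 0 fell. Of the granule genes, Mmrn1, which encodes the factor V binding protein multimerin 1, rose (1.43 and 2.73 against 10.1 and 9.24 FPKM), and Stxbp2, a regulator of granule release, fell (51.5 and 61.6 against 22.3 and 15.7 FPKM). Of the signalling genes Rgs18, a regulator of G protein signalling in platelets, rose (4.08 and 7.44 against 22.6 and 12.3 FPKM), and Alox12, the platelet lipoxygenase, fell to 0.239 and 0.147 FPKM. Both cytoskeleton genes that changed fell, Bin2 (19.2 and 18.5 against 8.23 and 4.48 FPKM) and Arpc1b (77.2 and 169 against 54.3 and 55.8 FPKM).

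In Sp3-/- progenitor cells the medians of the same lists lay below 0. The median difference from WT was -0.81 over the 7 genes, -0.91 over the signalling genes, -0.61 over the cytoskeleton genes, -0.56 over the granule genes, -0.20 over the receptors and -0.10 over the transcription factors, against 0.04 over all genes, of which 3.88% rose and 4.77% fell. Of the 20 signalling genes 4 fell and 0 rose, among them Rap1b, the small GTPase that activates platelet integrins (280 and 253 FPKM in WT, 156 and 149 FPKM in Sp3-/-, adjusted p = 0.00042), and Tbxas1, thromboxane synthase. Of the 16 cytoskeleton genes 4 fell and 0 rose, including Myh9, the nonmuscle myosin heavy chain (140 and 170 against 74.7 and 74.1 FPKM), and Tuba8. Of the 19 granule genes 2 fell, Thbs1 (92.4 and 117 against 28.1 and 31.0 FPKM) and F5, which encode thrombospondin 1 and coagulation factor V, and of the receptors 1 fell, the tetraspanin Cd9 (49.2 and 60.5 against 32.3 and 28.0 FPKM). Of the 18 transcription factors, 1 rose in Sp1ΔDBD/ΔDBD cells, Erg (8.94 and 13.6 FPKM in WT, 17.3 and 29.4 FPKM in Sp1ΔDBD/ΔDBD, adjusted p = 0.0476), and 2 fell, and in Sp3-/- cells 1 rose and 1 fell. Meis1, which lies on chromosome 11 like Plek, fell in both mutants (44.5 and 22.5 FPKM in WT, 16.1 and 13.9 FPKM in Sp1ΔDBD/ΔDBD, 9.23 and 7.58 FPKM in Sp3-/-), Gata2 was higher in Sp3-/- cells (7.65 and 7.35 against 16.2 and 12.7 FPKM), and Gata1, a driver of both megakaryocytes and red cells, was at 69.9 and 45.9, 68.1 and 62.6, and 40.1 and 45.2 FPKM in WT, Sp1ΔDBD/ΔDBD and Sp3-/- cells.

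**Figure D4:**
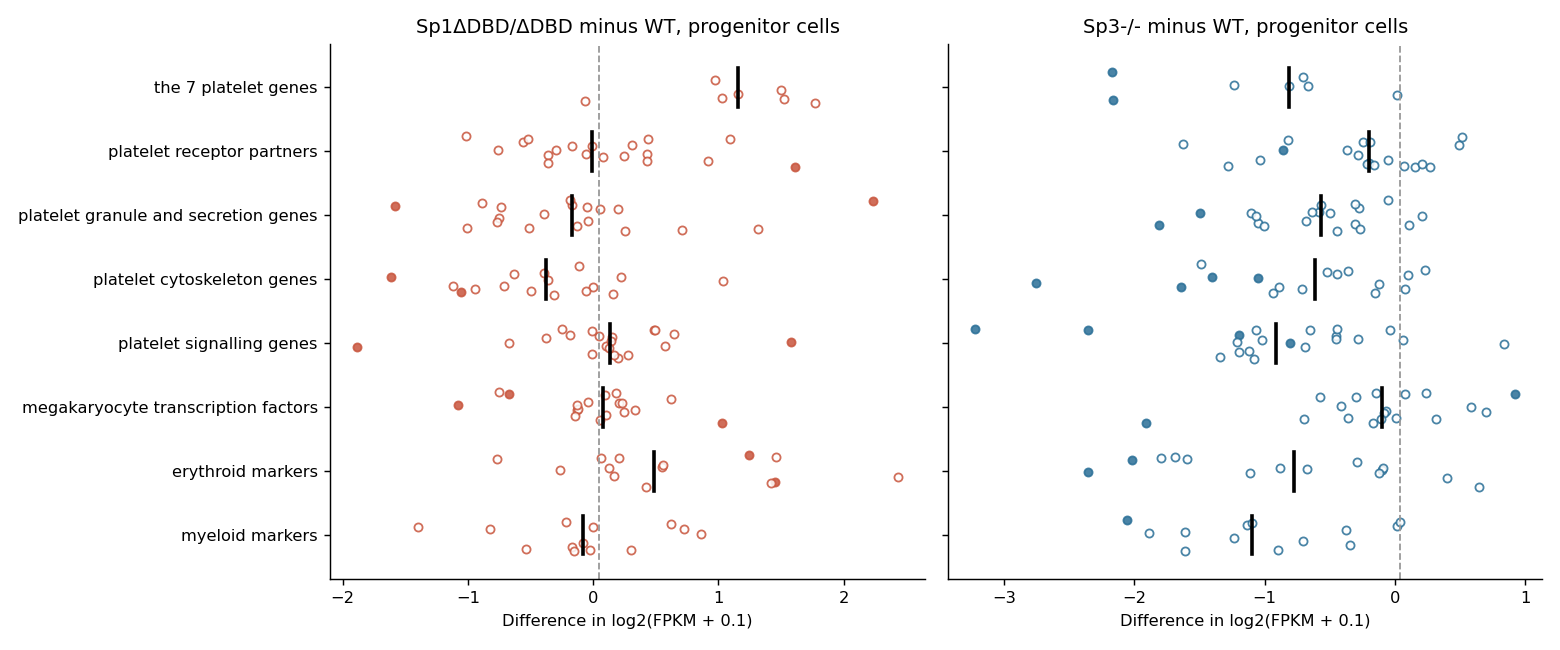
Differences from WT in progenitor cells in log2(FPKM + 0.1) on the x axis for Sp1ΔDBD/ΔDBD (left) and Sp3-/- (right), with 1 point per gene in each list, filled where the adjusted p is under 0.05, a black bar at the list's median and a dashed line at the median of all genes. The 7 platelet genes had a median of 1.15 on the left, apart from those of the other platelet lists, and of -0.81 on the right. Some of the 7 are markers of a cluster reported as extra in Sp1ΔDBD/ΔDBD cells, so the left median is not independent of that genotype.

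A further list came from the study's single-cell data on KIT+ blast culture cells of the WT and Sp1ΔDBD/ΔDBD lines, without Sp3-/- cells. There it marks a megakaryocytic cluster, which the paper reports as an extra cluster of the Sp1ΔDBD/ΔDBD cells. The list holds 5 of the 7 genes, and 159 of its other genes were tested here. It was chosen on other samples of the WT and Sp1ΔDBD/ΔDBD lines, so it is not independent of the Sp1ΔDBD/ΔDBD genotype. The same holds for the 5 of the 7 genes that are on it. Of the 159, 8 rose and 2 fell in Sp1ΔDBD/ΔDBD progenitor cells (median difference 0.11), 1 rose and 13 fell in Sp3-/- progenitor cells (median -0.23), and 2 were higher and 32 lower in Sp3-/- than in Sp1ΔDBD/ΔDBD progenitor cells (median -0.39), against medians of 0.05, 0.04 and 0.03 over all genes. Of all genes, 3.75% were higher and 5.04% lower in the first of these comparisons, 3.88% and 4.77% in the second, and 5.51% and 6.09% in the third. Hemgn, a nuclear protein of blood progenitors, had 10.4 and 4.79 FPKM in WT, 31.9 and 14.3 FPKM in Sp1ΔDBD/ΔDBD and 3.05 and 3.29 FPKM in Sp3-/- progenitor cells. At the step from HE2 to progenitor cells 69 of the 159 rose in WT, 86 in Sp1ΔDBD/ΔDBD and 28 in Sp3-/- cells, against 5.46%, 6.73% and 2.96% of all genes, and none fell.

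Markers of other lineages were counted in the same comparisons with WT, in which 3.75% of all genes rose and 5.04% fell in Sp1ΔDBD/ΔDBD and 3.88% rose and 4.77% fell in Sp3-/- progenitor cells. Of 14 erythroid markers, 2 rose and 0 fell in Sp1ΔDBD/ΔDBD progenitor cells (median difference 0.48), and 0 rose and 2 fell in Sp3-/- progenitor cells (median -0.78). Their summed level, mostly embryonic globins, was 14721 and 5212 FPKM in WT, 10764 and 8088 FPKM in Sp1ΔDBD/ΔDBD and 1753 and 3989 FPKM in Sp3-/- progenitor cells. Of 13 myeloid markers, 0 changed in Sp1ΔDBD/ΔDBD (median -0.08) and 1 fell in Sp3-/- progenitor cells (median -1.10), the leukocyte antigen Ptprc (1.60 and 4.93 against 0.448 and 0.807 FPKM). Their sums were 112 to 259 FPKM in WT, 129 to 155 FPKM in Sp1ΔDBD/ΔDBD and 99.3 to 108 FPKM in Sp3-/- progenitor cells. Of 14 endothelial markers, 3 fell in Sp1ΔDBD/ΔDBD, and 1, Tek, rose and 2 fell in Sp3-/- progenitor cells, with sums between 181 and 316 FPKM over the genotypes. Of 6 fibroblast and feeder markers 0 changed in either mutant, and their sum ranged from 7.47 to 60.7 FPKM with the highest value in WT replicate 1. Among the erythroid, myeloid and fibroblast markers at most 1 per group was at the lowest value in both samples of progenitor cells. How far the makeup of the sorted progenitor cells moved the 7 genes was not tested.

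Genes with the most similar pattern were found by correlating the mean of each group, over the 15 groups, with the average pattern of the 7 genes. The 5 most similar of 14525 genes were Tubb1, the platelet beta tubulin (Pearson r = 0.981), Hemgn (0.981), Adgre4 (0.979), Ncf1, a subunit of the phagocyte oxidase (0.976), and Slc4a1, the red cell anion exchanger band 3 (0.974). Since the 15 groups share the rise toward progenitor cells, 170 genes outside the 7 had an r above 0.9. Of the 7 themselves, r was 0.976 for Pf4, 0.973 for Treml1, 0.957 for Gp9, 0.955 for Gp5, 0.931 for Plek, 0.879 for Gp6 and 0.842 for Gp1bb, and each is part of the average it was compared with. Tubb1 had 30.9 and 35.8 FPKM in WT, 71.3 and 65.7 FPKM in Sp1ΔDBD/ΔDBD and 9.69 and 14.4 FPKM in Sp3-/- progenitor cells. Pf4, Gp5, Gp6 and Treml1 stood in this order of genotypes without overlap. Gp1bb and Gp9 stood in it by mean FPKM only, as their WT and Sp3-/- samples overlapped. By ranks the 5 had Spearman correlations from 0.821 to 0.946, and 0 of them were among the 5 highest.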

How the data were processed

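RNA-seq libraries of total RNA (TruSeq Stranded, ribosomal RNA removed) from 30 samples were used. The authors aligned reads to mm10 with HISAT2 2.1.0 and calculated FPKM per gene with StringTie 1.3.3. The deposited FPKM values had been quantile normalised by the authors after genes that never passed 1 FPKM were removed. Quantile normalisation gives every sample the same distribution, so a shift of most genes would not show. Depth is unknown, and the spread between the 2 replicates is the error used.

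Population, genotype and replicate came from the labels. On the scale log2(FPKM + 0.1), the 14525 genes above 1 FPKM in any sample were fitted in R 4.3.3 with limma 3.58.1, as 15 group means with an intensity trend (15 residual and 3.92 prior degrees of freedom). Adjusted p are two-sided, after Benjamini and Hochberg within a comparison over all genes tested, with a threshold of 0.05, and come from this fit unless another is named. Differences are of mean log2 values with SE; a value given as times is a ratio of mean FPKM. An exact permutation test of 2 against 2 cannot go below p = 0.333. The fit was tested on simulated data.

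Genes named are the 7, and from each list up to 4 with the highest mean and up to 2 with the largest called difference in progenitor cells of each mutant; Gata1 and Gp1ba were chosen after their values were seen. The 7 genes, lists and tests were chosen with earlier results of these data known. Annotation is GENCODE M21, and promoters are from RefSeq.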

Additional observations from a re-analysis of the deposited data

Results flagged for a closer look

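In progenitor cells the mutants stood on opposite sides of WT for 4 genes: every Sp1ΔDBD/ΔDBD sample was above and every Sp3-/- sample below both WT samples. The direct difference, Sp3-/- minus Sp1ΔDBD/ΔDBD, passed the limma test for each, at -2.75 for Pf4, -1.68 for Gp5, -3.94 for Gp6 and -1.84 for Treml1 (log2). Of all genes, 3.22% showed this order. The calls of Pf4, Gp5 and Treml1 were lost without single replicates (adjusted p up to 0.272 for Treml1), and that of Gp6 was not.

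In other cases the effect of a mutation differed between populations, either because every sample lay on the opposite side of WT in the other population or because the difference of the effects passed the test. That difference was computed for all pairs of populations and tested with limma after the values were seen. For Sp1ΔDBD/ΔDBD, the effect on Gp1bb was higher in progenitor than in Flk1 cells by 3.15 ± 0.75 (adjusted p = 0.0486) and than in HE1 cells by 2.07 ± 0.75 (0.449), that on Gp9 was higher in progenitor than in HE1 cells by 2.85 ± 0.74 (0.178), and that on Gp5 by 1.91 ± 0.52 (0.208). For Sp3-/-, the effect on Plek differed by -3.61 ± 0.55 between ESC and HE2 cells (adjusted p = 0.00517), by -2.45 ± 0.55 between Flk1 and HE2 cells (0.0210) and by -2.53 ± 0.55 between ESC and progenitor cells (0.0294). The Sp3-/- effect on Gp5 differed by -1.50 from ESC to Flk1 cells, -1.69 from ESC to progenitor cells, 1.02 from Flk1 to HE2 cells and -1.21 from HE2 to progenitor cells, none of which passed. The ESC, Flk1 and HE1 values in these cases were all under 1 FPKM. Groups of 2 samples were too small for a search for outlying samples.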

How the results depend on the processing

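Counts of the 7 genes called were summed over populations or steps. As reported they were 0 higher and 3 lower for Sp1ΔDBD/ΔDBD against WT, 0 and 3 for Sp3-/- against WT, 2 and 8 for Sp3-/- against Sp1ΔDBD/ΔDBD, 14 and 0 for the steps of WT, 14 and 0 for those of Sp1ΔDBD/ΔDBD, 8 and 1 for those of Sp3-/-, and 0 and 0 for differences of steps. No result that was past the threshold in either fit changed direction. With a pseudocount of 1, Sp1ΔDBD/ΔDBD against WT gave 6 higher and 1 lower, Sp3-/- against Sp1ΔDBD/ΔDBD gave 0 higher, the Sp3-/- steps 0 lower, the differences of steps 1 lower, Sp3-/- against WT 4 lower, and the steps 11 (WT), 13 (Sp1ΔDBD/ΔDBD) and 6 (Sp3-/-) higher. With only the groups compared in the fit, which leaves 2 against 2 samples, Sp1ΔDBD/ΔDBD against WT gave 0 lower, Sp3-/- against WT 1 lower, Sp3-/- against Sp1ΔDBD/ΔDBD 0 higher and 1 lower, and the steps 6 (WT), 2 (Sp1ΔDBD/ΔDBD) and 4 (Sp3-/-) higher. Correction for GC content and length gave 1 higher (Sp1ΔDBD/ΔDBD against WT) and 0 higher (Sp3-/- against Sp1ΔDBD/ΔDBD), and subtraction of chromosome medians 1 lower (Sp1ΔDBD/ΔDBD against WT). The cause of these shifts was not tested. The filter on low values and the rescaling changed no call, and the fit without an intensity trend added 1.

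Leaving out 1 replicate gave 0 to 1 higher and 1 to 3 lower for Sp1ΔDBD/ΔDBD against WT, 0 to 0 higher and 2 to 5 lower for Sp3-/- against WT, 1 to 2 higher and 4 to 9 lower for Sp3-/- against Sp1ΔDBD/ΔDBD, and 12 to 14 (WT), 11 to 14 (Sp1ΔDBD/ΔDBD) and 7 to 9 (Sp3-/-) higher with 0 to 1 lower for the steps. The count of 8 fell to 5 without Sp3-/- progenitor replicate 1 and to 4 without replicate 2, and the count of 3 for Sp3-/- against WT rose to 5 without Sp3-/- HE2 replicate 1, where Pf4 and Treml1 passed as lower in HE2 cells. The lone sample left in a group is then assumed to vary like the other groups.

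Replicate numbers are shared between genotypes, but the labels do not say that a number marks a common culture. Deviations of same-numbered WT and mutant samples correlated across genes at 0.255 to 0.481 for Sp1ΔDBD/ΔDBD and 0.00318 to 0.194 for Sp3-/-, and, within a genotype, those of same-numbered samples of the 3 sorted populations at 0.0264 to 0.649, so the samples were not fully independent. With the replicate block, 11 of 217 tests of the 7 genes newly passed and 1 no longer did. Sp1ΔDBD/ΔDBD against WT gave 1 higher, Treml1 in progenitor cells (adjusted p = 0.0308), and the differences of steps gave 2 lower, Plek and Gp6 in Sp3-/- cells. From HE2 to progenitor cells of WT, Pf4 (0.0273) and Plek (0.0322) passed, so that all 7 rose, and the steps of Sp3-/- cells gave 12 higher with Gp6, Pf4 (at both later steps) and Gp1bb. In HE2 cells Treml1 (0.00605) passed as lower in Sp3-/- than in WT and Pf4 (0.0431) as lower than in Sp1ΔDBD/ΔDBD, while Gp6 in Sp3-/- against WT progenitor cells was no longer called (adjusted p = 0.0634).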
